A study of Rattus norvegicus with 8 samples.

Results

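The genes described here encode the major histocompatibility complex (MHC), the proteins that load peptides onto it, and the proteins that interferons induce. They were taken by name from an Agilent 1-color Whole Rat Genome array. The rule took every probe whose gene name starts with RT1 (the rat MHC), Irf, Ifi, Ifit, Gbp or Oas, together with B2m, Tap1, Tap2, Tapbp, Cd74, Ciita, Mx1, Mx2, Isg15 and its older name G1p2. It found 92 of the 41012 non-control probes, which carry 69 of 35561 gene names. By name, 25 of these genes are MHC class I genes (B2m included), 7 class II genes, 3 peptide loading genes, 8 interferon regulatory factors and 25 interferon-induced genes. The remaining gene, RT1-Ke4, is the zinc transporter Slc39a7 in RefSeq, and its name gives no class. Ciita and Irf8 were not found under those names, and Isg15 was listed as G1p2.

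The cells were primary thymocytes of adrenalectomized male Sprague-Dawley rats, so that the animals of both groups lacked their own adrenal glucocorticoids. For each culture the thymi of 3 rats were pooled, sheared and filtered through mesh. The Control group (4 arrays) received no hormone, and the Dex group (4 arrays) received 100 nM dexamethasone, a synthetic glucocorticoid that kills thymocytes, for 6 h. Ages were not given, and the suspension was not sorted, so it can hold any cell of the thymus that passes the mesh. Nothing in the labels says whether arrays of a group came from separate pools of animals, and where they did not, the p-values measure only the spread between these arrays. The study states 3 biological replicates, and 4 arrays per group were analysed here. The replicate number of an array is called its culture number, though the labels do not say that each array was a separate culture.

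MHC class I molecules sit on nearly all nucleated cells and present peptides from inside the cell to CD8 T cells. A class I heavy chain pairs with beta-2 microglobulin (B2m), and receives its peptide from the transporter Tap1-Tap2 with the help of tapasin (Tapbp). In the rat, RT1-A genes encode classical class I heavy chains, and the RT1-C, -E and -M regions encode many nonclassical ones. MHC class II molecules (RT1-B and RT1-D) present peptides from outside the cell to CD4 T cells, and are made by dendritic cells, macrophages, B cells and thymic epithelium, with the invariant chain Cd74 as their chaperone. Interferons act through receptors, JAK kinases and STAT factors on response elements in DNA. They raise the interferon regulatory factors, the guanylate binding proteins (Gbp), the oligoadenylate synthetases (Oas), and the class I pathway as a whole. Glucocorticoids are known to repress many immune genes and to induce others.

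Several results rest on class I probes, and rat class I genes are near copies of each other. The probe sequences are therefore shown first, 5′ to 3′, as the scanner files give them. The probes for RT1-N1 (chr20:2788948-2789007, rn3) and RT1-N3 (chr20:2810251-2810310, rn3), both class I genes, overlap in 32 bases, of which 30 are identical. Capitals mark those bases.
RT1-N1: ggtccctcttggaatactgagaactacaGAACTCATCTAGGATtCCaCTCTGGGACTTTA
RT1-N3: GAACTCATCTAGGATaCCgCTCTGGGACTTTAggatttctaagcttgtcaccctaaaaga
No other probe of the array shared such a stretch (at least 24 identical bases in an ungapped overlap) with either of them. The probes cannot be counted as independent measurements of 2 genes, because transcripts of one may bind the probe of the other.

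The nearest class I gene to this pair, RT1-S3, has probes with no stretch in common with the RT1-N probes (chr20:2818169-2818228 and chr20:2820286-2820344, rn3, in this order).
RT1-S3, first probe: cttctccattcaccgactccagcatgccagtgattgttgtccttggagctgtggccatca
RT1-S3, second probe: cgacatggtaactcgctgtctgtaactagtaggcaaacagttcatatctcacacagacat
A longer match joins the probe for RT1-M6-2 (chr20:1677337-1677396, rn3), named as a gene of the M region, to the probe for RT1-CE1 (chr20:3595952-3596011, rn3). In an overlap of 59 bases 48 are identical, again in capitals.
RT1-CE1: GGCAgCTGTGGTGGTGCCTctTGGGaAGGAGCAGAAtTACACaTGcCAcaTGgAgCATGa
RT1-M6-2: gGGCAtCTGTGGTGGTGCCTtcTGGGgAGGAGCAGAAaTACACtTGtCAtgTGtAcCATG
Of the 37 class I probes, 15 shared such a stretch with a class I probe of another name, in 19 pairs. The first RT1-S3 probe is among them, with 24 of 27 bases identical to a probe of RT1-Cl and 26 of 34 to the RT1-CE2 probe. Values of these probes, among them those of RT1-A2, RT1-A3, RT1-M6-2 and several RT1-CE genes, are thus uncertain as values of single genes. The other class I probes, as those of the other RT1-M genes, were compared with probes only. Whether transcripts of other genes bind them was not tested.

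The probes for Gbp2 (chr2:240527741-240527800, rn3), a guanylate binding protein, and Oas1 (chr12:36680000-36680059, rn3; RefSeq symbol Oas1a), an oligoadenylate synthetase, are shown because these interferon-induced genes had the largest differences of their class.
Gbp2: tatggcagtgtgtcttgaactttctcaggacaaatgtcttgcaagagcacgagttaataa
Oas1: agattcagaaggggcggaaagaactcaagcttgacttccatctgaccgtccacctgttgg

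Of the member probes, 72 were well above background (the scanner software's own call) on all 8 arrays, and 76 were so on every array of at least 1 group. None was saturated. Values are log2 signals after quantile normalization, and differences are Dex minus Control on that scale. As a check of the labels, all 6 known glucocorticoid-induced genes examined were higher in Dex, 5 of them past an adjusted p of 0.05. All 9 double positive thymocyte markers on the array, Cd4, Cd8a and Rag1 among them, were well above background on all 8 arrays. The count of probes well above background ran from 24908 to 34472 between arrays, lowest on Dex 1 and Dex 2, and 4 arrays a group set the precision of all that follows.

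In the comparison of Dex with Control, 3 member probes passed a limma adjusted p of 0.05, and all 3 were lower in Dex. They were RT1-N1, RT1-N3 and Gbp2. Of all probes, 0.778% passed in either direction, 0.215% lower and 0.563% higher in Dex. At an unadjusted p of 0.05, 11 member probes were lower and 2 higher, where 4.92% of all probes were lower and 5.63% higher. The Dex values lay entirely below the Control values for 11 member probes, against 4.51% of all probes, and entirely above them for 2, against 4.6%. A signal to noise statistic was also computed, with its p-value taken here from the values of all probes together under the 70 ways of dividing the arrays. The methods define the statistic but drew its permutations otherwise, so the calls need not be theirs. At a one-tailed p of 0.01 and a fold of 1.2, 10 member probes were lower and 1 higher, where 3.2% and 3.59% of all probes passed. These were the probes of RT1-N1, RT1-N3, RT1-S3 (both), 1 of RT1-Cl, Tap1, Irf1, Gbp2, 1 of Ifit1 and Ifitm1 on the lower side, and Oas1 on the higher side. With 1 probe per gene, 47 member genes were lower and 22 higher in Dex, with a median difference of -0.19, while the median over all genes was -0.00.

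**Figure D1:**
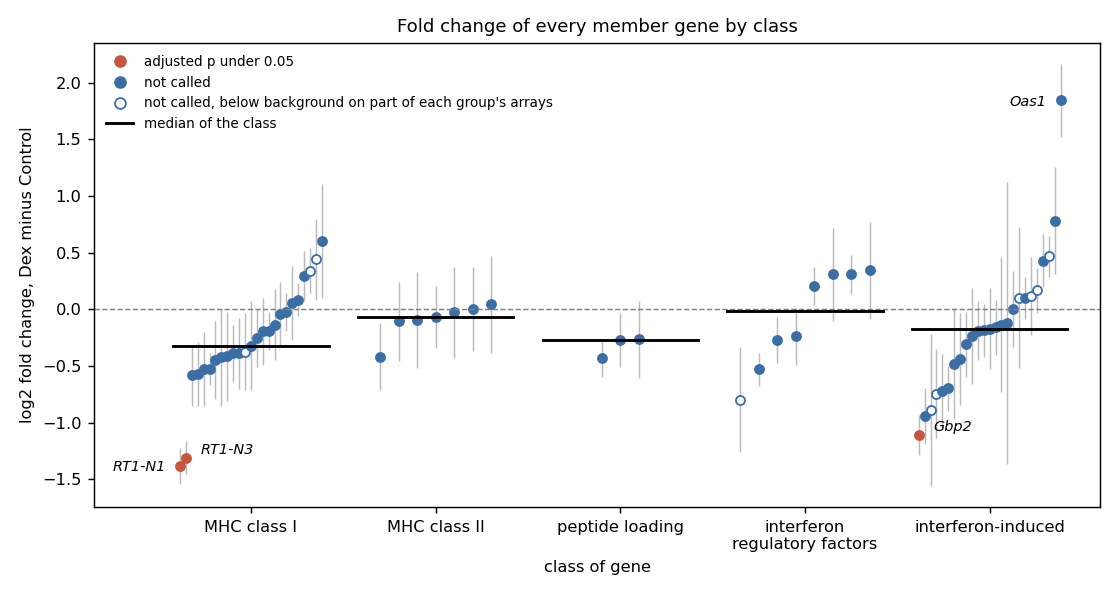
Each point is the log2 fold change (Dex minus Control, n = 4 arrays each) of 1 member gene, by its brightest probe, with its standard error; the horizontal axis groups the genes by class. The 3 called genes sit lowest in class I (RT1-N1 and RT1-N3) and among the interferon-induced genes (Gbp2), the class II median is -0.07, and Oas1 is the highest point.

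RT1-N1 fell in Dex. Its log2 signal was 14.44, 14.81, 14.56 and 14.45 on Control arrays 1 to 4, and 13.41, 13.04, 13.18 and 13.11 on Dex arrays 1 to 4. The groups lay more than 1 log2 unit apart at their nearest values. The means were 14.57 ± 0.17 and 13.18 ± 0.16 (SD, n = 4 each), a difference of -1.38 (SE 0.16, limma adjusted p = 0.00935), or 2.60-fold. The same-numbered cultures differed by -1.03, -1.77, -1.39 and -1.34.

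RT1-N3 fell by a like amount. Its signal was 14.40, 14.57, 14.43 and 14.38 in Control and 13.33, 13.06, 13.10 and 13.06 in Dex. All Control values again lay above all Dex values. The means were 14.44 ± 0.09 and 13.14 ± 0.13 (SD, n = 4 each), which gave a difference of -1.31 (SE 0.14, limma adjusted p = 0.00728), or 2.47-fold. With the culture number as a block the adjusted p was 0.106 for RT1-N1 and 0.0891 for RT1-N3, in a fit that called 0.198% of all probes. With 75th percentile scaling in place of quantile normalization the difference was -1.34 for RT1-N1 (adjusted p = 0.161) and -1.26 for RT1-N3 (adjusted p = 0.189), and no member passed. Control 1 and Dex 3 were the only arrays of unlike groups on a shared slide, and between them RT1-N1 differed by -1.26 and RT1-N3 by -1.29.

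**Figure D2:**
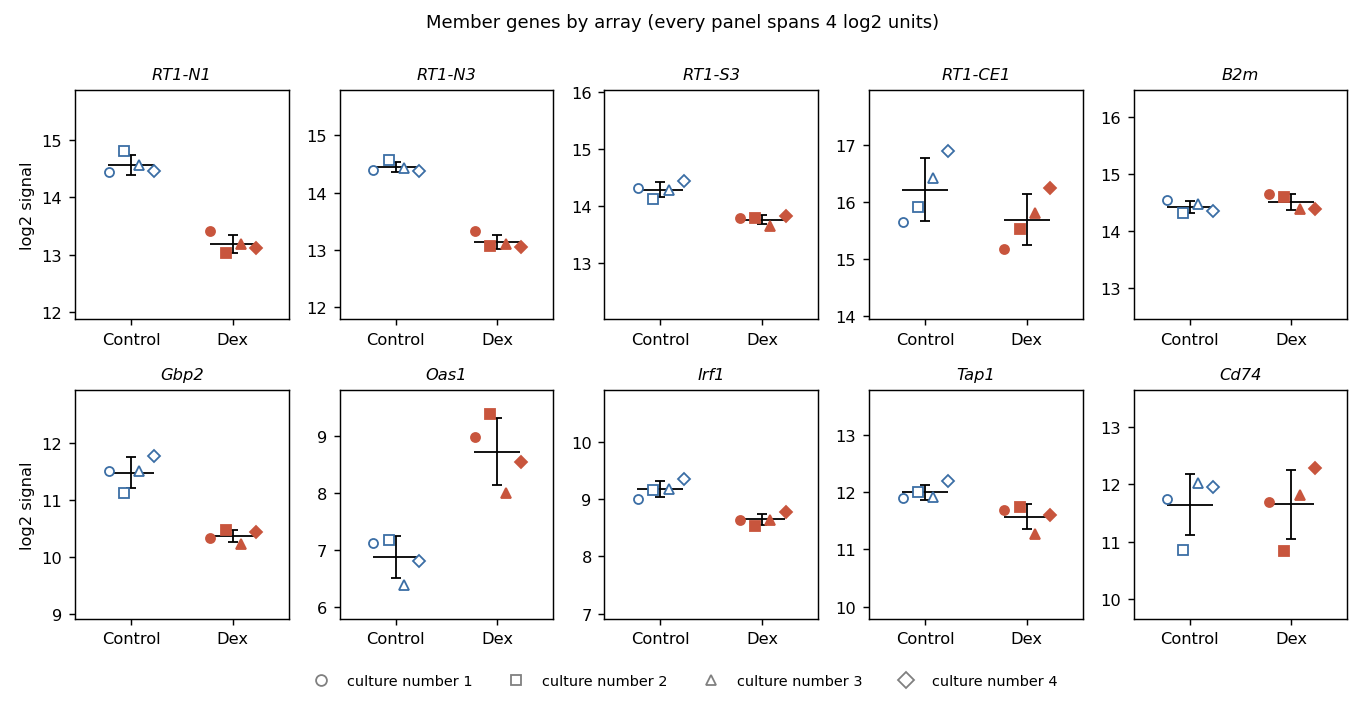
Log2 signal (vertical axis) of 10 member genes on the 4 Control and 4 Dex arrays (horizontal axis), with the culture number given by the symbol; the bar is the mean and the whiskers the SD of 4 arrays. RT1-N1, RT1-N3 and Gbp2 are lower in Dex with no overlap, Oas1 is higher with no overlap, and the groups of B2m and Cd74 overlap.

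RT1-S3, with both of its probes, was lower in Dex without passing the test. The first probe gave 14.32, 14.12, 14.28 and 14.44 in Control and 13.80, 13.79, 13.65 and 13.83 in Dex, a difference of -0.53 (SE 0.14, limma adjusted p = 0.202). The second gave 12.60, 12.54, 12.59 and 12.73 in Control and 12.14, 12.29, 11.55 and 11.71 in Dex, a difference of -0.69 (SE 0.20, adjusted p = 0.235). Neither probe's groups overlapped.

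The RT1-N and RT1-S genes lie side by side on chromosome 20. Between 50000 bases before and 50000 bases after them, the array holds 9 probes, from chr20:2754855 to chr20:2828188 (rn3), a span of 73.3 kb. All 9 were lower in Dex, by -0.22 to -1.38, and in 7 the groups did not overlap, where all Dex values lay below all Control values in 4.51% of all probes. The window was placed around the RT1-N and RT1-S genes, and 4 of these 7 are the RT1-N and RT1-S3 probes already described. Besides the RT1-N probes none passed the test. The neighbours, listed under the names H2-T18 (RT1-T18 in RefSeq, a nonclassical class I gene), BX883048 and NP798074, differed by -0.22 (SE 0.17) and -0.49 (SE 0.17) for H2-T18, -0.52 (SE 0.15) and -0.44 (SE 0.25) for BX883048, and -0.65 (SE 0.21) for NP798074, with limma adjusted p from 0.250 to 0.719. The difference was thus of unequal size over the stretch, and its share due to shared sequence among these probes was not tested. The nearest member probe past the window, 1 of RT1-Aw2 (chr20:2870412-2870471, rn3), was higher in Dex by 0.40 (SE 0.25), with overlap. Farther on, RT1-T24-1 differed by -0.19 (SE 0.17), and RT1-T24-2 was not well above background on any array. That all probes were lower thus depends on where the window ends.

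**Figure D3:**
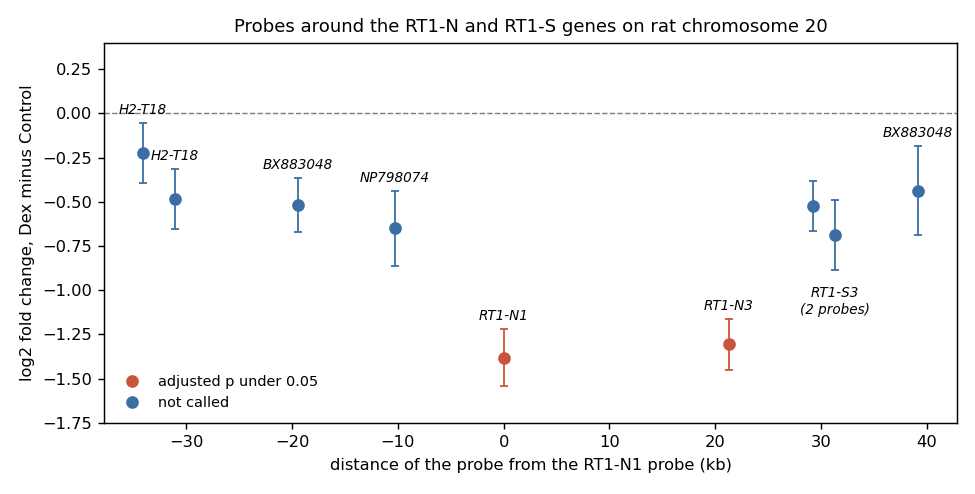
Log2 fold change (Dex minus Control, with standard error, n = 4 arrays each) of the 9 probes around the RT1-N and RT1-S genes, against their distance from the RT1-N1 probe in kb. All 9 lie below 0, and RT1-N1 and RT1-N3 lie lowest, at -1.38 and -1.31.

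For most other class I genes the groups overlapped. Over the 25 class I genes, 19 were lower and 6 higher in Dex, and the median difference was -0.32. This median was -0.48 without Control 1 and -0.17 without Control 4. With slide as a fixed block, where only Control 1 and Dex 3 carry the comparison, it was 0.14, with 15 genes higher and 10 lower. By the letters of the name, all 3 RT1-A genes and 7 of 10 RT1-CE genes were lower (medians -0.32 and -0.40), as were 4 of 5 RT1-M genes and 1 of 2 RT1-T genes (medians -0.04 and 0.12). RT1-CE1 gave 15.66, 15.91, 16.41 and 16.89 on Control arrays 1 to 4 and 15.18, 15.53, 15.81 and 16.24 on Dex arrays 1 to 4. The higher values of both groups came from cultures 3 and 4. The difference between the means was -0.53 (SE 0.33, limma adjusted p = 0.657), and the same-numbered cultures differed by -0.47, -0.38, -0.60 and -0.65.

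Within each group RT1-CE4 and RT1-M6-2 had the same order of arrays as RT1-CE1. RT1-CE4 was 15.52, 15.79, 16.19 and 16.48 in Control and 15.04, 15.22, 15.48 and 15.97 in Dex, a difference of -0.57 (SE 0.28, adjusted p = 0.544, and 0.276 with culture number as a block). RT1-M6-2 was 15.80, 15.96, 16.39 and 16.64 in Control and 15.24, 15.40, 15.70 and 16.14 in Dex, a difference of -0.58 (SE 0.27, adjusted p = 0.506, and 0.270 with the block). These probes share sequence, as shown above, and so do not give separate support. A second RT1-M6-2 probe, outside the shared stretch, was 4.30, 4.87, 4.85 and 4.88 in Control and 3.95, 1.27, 5.51 and 5.86 in Dex (difference -0.58, SE 0.91), and was not well above background on 2 Dex arrays.

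Probes of a single class I name also disagreed. RT1-Aw2, an RT1-A heavy chain, had 4 probes to different accessions, with differences of -1.05 (SE 0.31), -0.39 (SE 0.31), -0.29 (SE 0.31) and 0.40 (SE 0.25). The first of these lay lower in Dex with no overlap, from 11.91 to 12.87 in Control and from 10.84 to 11.79 in Dex, and missed the threshold (limma adjusted p = 0.252). RT1-Cl had a probe at -0.64 (SE 0.18, adjusted p = 0.218), also with no overlap, and another at -0.13 (SE 0.31), with overlap. RT1-CE6 had the largest positive difference of the class I genes, at 7.70, 7.89, 9.08 and 9.41 in Control and 8.28, 8.84, 9.31 and 10.06 in Dex (difference 0.60, SE 0.50, adjusted p = 0.741).

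B2m, the light chain that all class I heavy chains share, overlapped between the groups at its brightest probe. This probe gave 14.54, 14.31, 14.48 and 14.36 in Control and 14.64, 14.60, 14.39 and 14.38 in Dex, a difference of 0.08 (SE 0.15, limma adjusted p = 0.888). The other 3 B2m probes differed by 0.01 to 0.24, and in 1 of them (difference 0.22, SE 0.13, adjusted p = 0.650) all Dex values lay above all Control values.

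All 3 peptide loading genes were lower in Dex, and none passed the test. Tap1, a subunit of the peptide transporter, was 11.90, 12.00, 11.91 and 12.19 in Control and 11.68, 11.74, 11.26 and 11.59 in Dex. Its groups did not overlap, with a difference of -0.43 (SE 0.17, limma adjusted p = 0.401). Tap2, the other subunit, was 14.65, 15.74, 15.88 and 15.76 in Control and 14.89, 14.80, 15.69 and 15.60 in Dex. Control 1 lay below all Dex values and the other 3 Control arrays above them, and the difference was -0.26 (SE 0.34, adjusted p = 0.844). Over fits that each left out 1 array the Tap2 difference ran from -0.55 to -0.11. Tapbp, the tapasin that holds class I to the transporter, was 9.57, 9.28, 8.86 and 8.92 in Control and 9.15, 9.19, 8.65 and 8.56 in Dex (difference -0.27, SE 0.24, adjusted p = 0.756).

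Other genes of the class I pathway were read from lists of proteasome, trimming and assembly genes. Of 7 proteasome and trimming genes on the array 5 were lower, and of 3 assembly genes 2 were lower (medians -0.12 and -0.10), with none past the test. The immunoproteasome subunit Psmb9, whose gene adjoins Tap1, was 13.55, 13.58, 12.71 and 13.03 in Control and 12.85, 13.05, 12.27 and 12.51 in Dex, a difference of -0.55 (SE 0.27, limma adjusted p = 0.535). Its groups overlapped. Psmb8 differed by -0.20 (SE 0.18). The peptidase Lnpep lay on the other side, at 6.74, 6.77, 6.63 and 6.92 in Control and 7.32, 7.60, 7.26 and 6.93 in Dex, with no overlap and a difference of 0.51 (SE 0.18, adjusted p = 0.347).

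For the MHC class II genes the values of Control and Dex overlapped at every probe. None of their 12 probes passed the limma test, and none did so at an unadjusted p of 0.05 or by the signal to noise statistic. For so few probes these counts are near the shares over the array, where 0.778% of all probes passed limma, and 4.92% were lower and 5.63% higher at that unadjusted p. Groups did not overlap in 4.51% of all probes on the lower and 4.6% on the higher side. Signal to noise called 3.2% lower and 3.59% higher. Of 7 genes 5 were lower and 2 higher in Dex, with a median of -0.07. The balance turned on single arrays: all 7 were lower without Control 2 (median -0.31) and without Dex 4 (median -0.27), and 5 were higher without Dex 2 (median 0.12) and without Control 4 (median 0.09). Cd74, the invariant chain, was 11.75, 10.86, 12.03 and 11.96 in Control and 11.69, 10.83, 11.81 and 12.28 in Dex, a difference of 0.01 (SE 0.37, adjusted p = 0.997). The lowest value of each group came from culture 2.

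RT1-Da and RT1-Db1, the chains of the RT1-D class II molecule, also had their lowest values in culture 2. RT1-Da was 10.89, 9.85, 11.15 and 10.87 in Control and 10.70, 9.91, 10.66 and 11.07 in Dex (difference -0.11, SE 0.35, adjusted p = 0.943). RT1-Db1 was 10.84, 9.96, 11.26 and 11.14 in Control and 10.80, 9.86, 11.00 and 11.43 in Dex (difference -0.03, SE 0.40, adjusted p = 0.988). RT1-Ba, a chain of the RT1-B molecule, differed by -0.42 (SE 0.29, adjusted p = 0.699) at its measured probe, from 4.86 to 6.07 in Control and from 5.03 to 5.56 in Dex. Its second probe was not well above background on any array. Ifi30, a thiol reductase of the class II pathway that interferon gamma induces, was 10.77, 10.07, 11.01 and 11.11 in Control and 10.83, 10.09, 10.64 and 11.41 in Dex, a difference of 0.00 (SE 0.33, adjusted p = 0.999). Ifi30 too was lowest in culture 2 of both groups.

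RT1-Bb, the other chain of the RT1-B molecule, is shown with both probes (chr20:4733189-4733248 and chr20:4730760-4730810, rn3), because they did not give the same picture.
RT1-Bb, first probe: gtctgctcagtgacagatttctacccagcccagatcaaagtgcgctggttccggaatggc
RT1-Bb, second probe: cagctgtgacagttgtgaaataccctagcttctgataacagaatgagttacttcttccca
The first was 9.98, 8.91, 10.40 and 10.61 in Control and 9.93, 9.36, 10.02 and 10.76 in Dex (difference 0.04, SE 0.43, adjusted p = 0.982). The second was 8.84, 7.77, 8.49 and 0.96 in Control and 8.50, 1.10, 7.85 and 0.94 in Dex. On Control 4, Dex 2 and Dex 4 it was not well above background, while the first probe was well above background on those arrays too. What set these 3 arrays apart was not tested. Its difference of -1.92 has an SE of 2.40 and rests on which arrays gave signal.

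In such a mixed suspension, fewer cells of a type and less RNA per cell cannot be told apart. The markers of presenting cells were therefore read beside class II. Of 16 macrophage and dendritic cell markers 12 were on the array and 10 well above background on all arrays, and none passed the test. Their summed level was 12.42 to 12.84 in Control and 12.34 to 13.28 in Dex (log2), and no defining marker was below background on all 8 arrays. Of 8 B cell markers 6 were on the array and 3 well above background on all arrays, with a summed level of 8.67 to 9.09 in Control and 8.11 to 9.30 in Dex. Of 11 thymic epithelial markers 5 were on the array and 2 well above background on all arrays, with a summed level of 6.63 to 7.02 in Control and 6.66 to 7.68 in Dex. At an unadjusted p of 0.05 the macrophage genes Mrc1 and C1qb were higher in Dex (differences 2.12 with SE 0.43 and 0.84 with SE 0.29, limma adjusted p = 0.087 and 0.33). Cd14 lay farthest to the other side, at -0.77 (SE 0.39), and over the macrophage and dendritic cell markers 7 were higher and 5 lower, with a median of 0.13. Of these 12 markers 1, the macrophage gene Cd68, was lowest in culture 2 of both groups, as class II was, at 8.34, 8.02, 8.26 and 8.15 in Control and 8.29, 7.94, 8.08 and 7.98 in Dex. Csf1r and Tyrobp were lowest on Dex 2 but not on Control 2, the B cell gene Cd79b on Control 2 but not on Dex 2, and the macrophage gene Lyz on neither. None of the 6 B cell and 5 thymic epithelial markers was lowest in culture 2 of both groups, and of 5 stroma and endothelium markers 1, the collagen gene Col1a1, was. The erythroid gene Hbb was highest in culture 2 of both groups, at 9.73 in Control and 10.51 in Dex, and lowest in culture 3, at 7.11 and 6.83. The part of cell composition in the class II values was not tested.

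**Figure D4:**
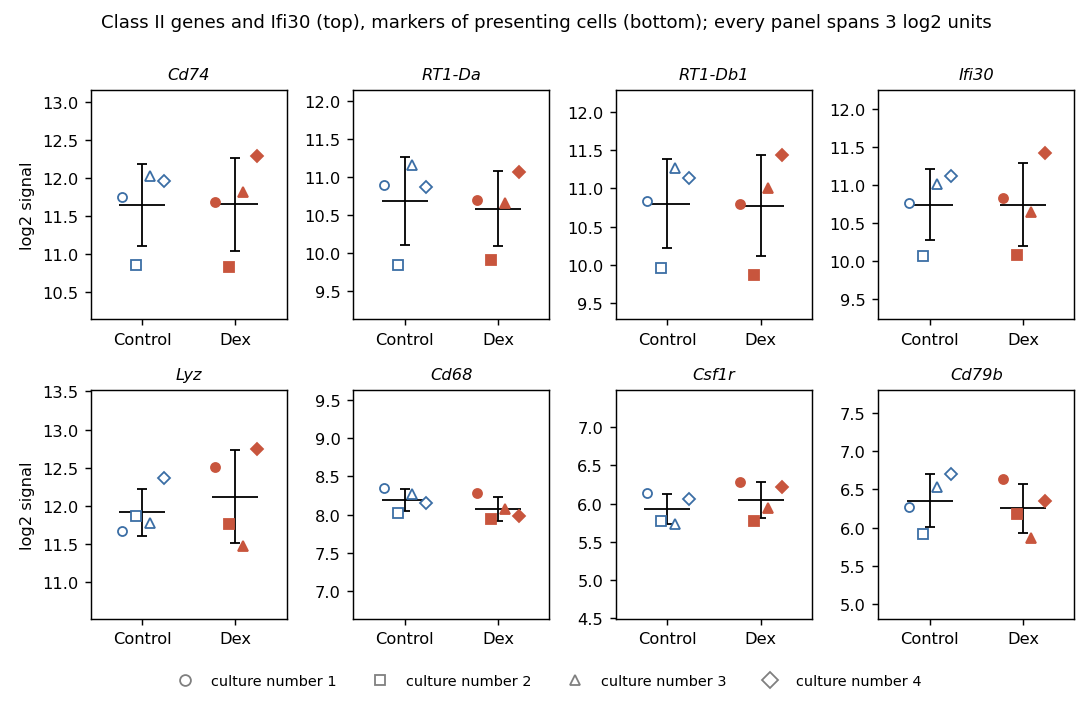
Log2 signal (vertical axis) on the 4 Control and 4 Dex arrays (horizontal axis) of Cd74, RT1-Da, RT1-Db1 and Ifi30 in the top row and of markers of macrophages (Lyz, Cd68, Csf1r) and B cells (Cd79b) in the bottom row; the bar is the mean, the whiskers the SD of 4 arrays, and the symbol the culture number. In the top row culture 2 is lowest in both groups, at 10.86 and 10.83 for Cd74, and so it is for Cd68 in the bottom row, at 8.02 and 7.94.

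The control of class II was read from a list of 9 genes on the array, 5 higher and 4 lower in Dex (median 0.03), none past the test. Ciita, the class II transactivator, is listed on the array under its older name C2ta, which the rule does not take. It was 4.45, 3.24, 4.73 and 4.92 in Control and 5.08, 4.18, 3.65 and 3.78 in Dex, a difference of -0.16 (SE 0.44, limma adjusted p = 0.932).

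Among the interferon regulatory factors none passed the test, and 4 of 8 genes lay on either side of 0 (median -0.02). Irf1, a factor that interferon gamma induces and that drives class I and Gbp genes, was 9.0, 9.16, 9.19 and 9.35 in Control and 8.63, 8.54, 8.63 and 8.78 in Dex. Its groups did not overlap, with a difference of -0.53 (SE 0.15, limma adjusted p = 0.215). With normexp background correction, under which 2.23% of all probes passed, its difference was -0.40 with an adjusted p of 0.0233.

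Irf7, the factor that amplifies type I interferon, was 8.18, 7.87, 7.79 and 7.87 in Control and 8.05, 8.23, 7.92 and 8.33 in Dex (difference 0.20, SE 0.17, adjusted p = 0.732). Irf3, which starts the type I response, was 14.84, 15.24, 15.18 and 15.01 in Control and 14.77, 14.34, 15.11 and 14.97 in Dex (difference -0.27, SE 0.21, adjusted p = 0.719). Irf2, an antagonist of Irf1, was 5.99, 6.03, 5.74 and 5.75 in Control and 6.80, 7.22, 5.22 and 5.65 in Dex (difference 0.35, SE 0.43, adjusted p = 0.835). Dex 1 and Dex 2 lay above all Control values and Dex 3 and Dex 4 below them. Over fits that each left out 1 array the Irf2 difference ran from 0.01 to 0.68. Irf4, a lymphocyte factor, was not well above background on all arrays of either group, and no fold is given for it. It was 3.31, 2.40, 2.64 and 2.75 in Control and 1.09, 1.23, 3.04 and 2.54 in Dex. Irf2bp1, counted here by its name, is a partner of Irf2 and differed by 0.31 with overlap.

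Gbp2 fell in Dex. It was 11.50, 11.12, 11.51 and 11.77 in Control and 10.33, 10.48, 10.23 and 10.43 in Dex. The lowest Control value lay above the highest Dex value. The means were 11.48 ± 0.27 and 10.37 ± 0.11 (SD, n = 4 each), a difference of -1.11 (SE 0.18, limma adjusted p = 0.0375), or 2.16-fold. The call was near the threshold: with culture number as a block the adjusted p was 0.160, and it passed in none of 8 fits that each left out 1 array (adjusted p from 0.0586 to 0.140). Its difference in those fits stayed between -1.23 and -1.01, and was -1.27 between the arrays of the shared slide. Of the other Gbp genes, Gbp5 differed by -0.44 with overlap, and Gbp4 was not well above background on all arrays of either group.

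Oas1 was the member farthest to the other side. It was 7.13, 7.18, 6.39 and 6.82 in Control and 8.97, 9.37, 8.0 and 8.54 in Dex. All Dex values lay above all Control values. The means were 6.88 ± 0.37 and 8.72 ± 0.59 (SD, n = 4 each), a difference of 1.84 (SE 0.32), or 3.59-fold. The limma adjusted p was 0.0533, just short of the threshold, and 0.0495 with culture number as a block. With normexp background correction, under which 2.23% of all probes passed, the difference was smaller, at 1.23 (limma adjusted p = 0.0425). The same-numbered cultures differed by 1.84, 2.19, 1.62 and 1.72, and the arrays of the shared slide by 0.87. The other Oas genes did not lie with it: Oas1i differed by -0.16 and Oasl2 by -0.17, with overlap, and Oas1b, Oas1c and Oasl1 were not well above background on all arrays of either group.

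The interferon-induced genes lay mostly on the lower side, 16 of 25 against 9, with a median of -0.17. The median was -0.11 without Control 1, -0.29 without Dex 1 and without Dex 2, and -0.09 without Dex 3. Without overlap and short of the threshold were Ifit1, at 1 of its probes, and Ifitm1. Ifit1, a protein that binds viral RNA, was 7.04, 7.49, 7.54 and 7.49 in Control and 6.73, 6.90, 6.06 and 6.10 in Dex (difference -0.94, SE 0.25, limma adjusted p = 0.185), and its other 2 probes were not well above background on all arrays of either group. Ifitm1, a membrane protein that limits virus entry, was 11.03, 10.58, 10.39 and 10.36 in Control and 10.09, 10.03, 9.65 and 9.80 in Dex (difference -0.70, SE 0.20, adjusted p = 0.237). Ifi44 was 11.59, 11.44, 11.66 and 10.73 in Control and 11.39, 11.01, 11.33 and 10.46 in Dex (difference -0.31, SE 0.29, adjusted p = 0.772). Its lowest value in both groups came from culture 4.

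Ifi27l showed the same with a wider span. It was 10.99, 8.99, 10.00 and 5.49 in Control and 9.53, 9.13, 9.93 and 6.39 in Dex, so that culture 4 lay more than 2 log2 units below the others in both groups. Of the antiviral genes that interferons induce, Mx1, Mx2 and G1p2 (Isg15) overlapped between the groups and differed by -0.23, -0.14 and 0.10. Others did not overlap, as given above: Oas1 was higher in Dex, and Ifit1 at its brightest probe was lower.

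Class levels by array were taken over the genes well above background on all arrays. Each gene's log2 signal was centred on its mean of 8 arrays, and the level is the median of these values over the genes. Class I (21 genes) stood at -0.18, -0.15, 0.44 and 0.61 on Control arrays 1 to 4 and at -0.54, -0.32, -0.15 and 0.23 on Dex arrays 1 to 4. Both groups had their higher values in cultures 3 and 4, and each Dex array lay below the Control array of its number, by -0.35, -0.18, -0.59 and -0.37. Class II (5 genes) differed by -0.06, 0.06, -0.45 and 0.28 between same-numbered cultures, and peptide loading (3 genes) by -0.22, -0.30, -0.50 and -0.57. The interferon-induced genes (19 genes) differed by -0.13, 0.03, -0.50 and -0.42, and the interferon regulatory factors (7 genes) by 0.11, 0.22, -0.04 and 0.09. No test was run on these class levels or between the classes.

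**Figure D5:**
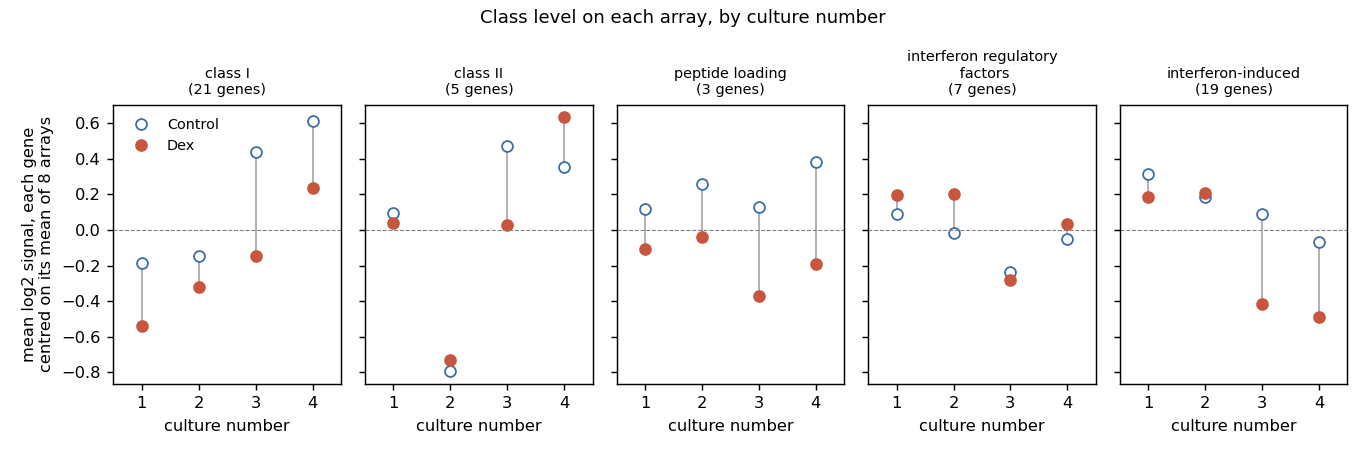
The median of each class on each array, over genes centred on their mean log2 signal of 8 arrays (vertical axis), against culture number (horizontal axis). The label of the vertical axis reads mean, but the points are medians over the genes. A grey line joins the Control and Dex arrays of a number. Class I and peptide loading are lower in Dex at all 4 numbers, class II is lowest at number 2 in both groups, and the interferon-induced genes part at numbers 3 and 4.

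The signals that feed these genes were read from lists of interferons, receptors and signal transduction genes. Socs1, which blocks JAK kinases and so damps interferon signals, was the 1 of 8 signal transduction genes that passed, and it rose in Dex. It was 10.15, 10.24, 10.35 and 10.26 in Control and 11.30, 11.35, 11.24 and 11.60 in Dex, a difference of 1.12 (SE 0.15, limma adjusted p = 0.0165, and 0.121 with culture number as a block). No value of one group lay within the other. Stat2 differed by -0.12, with overlap.

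Of 5 genes for interferons and their receptors on the array, 4 were lower, and none passed the test (median -0.30). Ifng, interferon gamma itself, was 5.13, 5.42, 5.48 and 5.63 in Control and 4.46, 4.63, 3.20 and 3.35 in Dex, with no overlap and a difference of -1.50 (SE 0.35, adjusted p = 0.137). Ifngr2, a chain of its receptor, was 12.13, 12.38, 12.55 and 12.41 in Control and 11.69, 11.54, 12.00 and 12.01 in Dex, also with no overlap (difference -0.55, SE 0.18, adjusted p = 0.297). Of 12 interferon effectors outside the rule's names, 8 were lower and 4 higher, none past the test (median -0.13). Tlr3, a receptor for double-stranded RNA, was the farthest of them, at 6.47, 6.48, 8.61 and 8.53 in Control and 9.29, 9.91, 10.05 and 10.51 in Dex (difference 2.42, SE 0.58, adjusted p = 0.143).

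Promoter sequence (300 bases, 250 before and 50 after the start, RefSeq, build GRCr8) was found for 43 of the 48 members with a RefSeq gene, and was searched on both strands for letters of known response elements. The interferon stimulated response element, GAAA and GAAA with 2 free bases between, was present in 13 of these promoters, against 3.92% of all 33469 promoters. It was in all 3 peptide loading genes, in 8 of 14 interferon-induced genes, in Irf7 and, of 15 class I genes, in B2m alone. No class II promoter held it. The gamma activated sequence, TTCNNNGAA, which reads the same on both strands, was in 6 member promoters, against 8.87% of all. CCAAT, part of the box that class II genes share, was in all 7 class II promoters and 10 of 15 class I promoters, against 37.5% of all. The palindromic glucocorticoid response element, GNACA and TGTNC with 3 free bases between, was in none of the 43 and in 0.439% of all, which says only that these letters are not in this window. No matches of unlike motifs overlapped in the member promoters. RT1-N1 and RT1-N3 had no entry.

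The promoters of Gbp2, Oas1a, Irf1 and Tap1 are printed because each of these genes had groups that did not overlap and held a match. Capitals mark the interferon stimulated response element on either strand and TTCNNNGAA. Gbp2 (chr2:234005477-234005776, plus strand) held the first 31 bases before the start, Oas1a (chr12:41330216-41330515, plus strand) held 2 overlapping matches to it from 41 bases before the start and the second motif 199 bases before it, Irf1 (chr10:38417685-38417984, plus strand) held the second motif 142 bases before the start, and Tap1 (chr20:4668494-4668793, minus strand) held the first 121 bases before it.
Gbp2: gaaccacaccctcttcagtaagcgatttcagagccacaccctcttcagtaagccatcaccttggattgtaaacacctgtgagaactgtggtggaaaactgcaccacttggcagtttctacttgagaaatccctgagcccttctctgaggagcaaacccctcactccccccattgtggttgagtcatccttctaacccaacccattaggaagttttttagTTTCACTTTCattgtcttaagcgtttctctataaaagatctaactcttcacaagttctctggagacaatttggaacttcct
Oas1a: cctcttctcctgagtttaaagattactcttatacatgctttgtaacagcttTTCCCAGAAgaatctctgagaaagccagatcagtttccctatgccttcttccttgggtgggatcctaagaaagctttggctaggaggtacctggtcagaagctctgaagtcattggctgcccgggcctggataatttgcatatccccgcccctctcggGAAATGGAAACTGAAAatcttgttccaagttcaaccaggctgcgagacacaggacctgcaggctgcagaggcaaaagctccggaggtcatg
Irf1: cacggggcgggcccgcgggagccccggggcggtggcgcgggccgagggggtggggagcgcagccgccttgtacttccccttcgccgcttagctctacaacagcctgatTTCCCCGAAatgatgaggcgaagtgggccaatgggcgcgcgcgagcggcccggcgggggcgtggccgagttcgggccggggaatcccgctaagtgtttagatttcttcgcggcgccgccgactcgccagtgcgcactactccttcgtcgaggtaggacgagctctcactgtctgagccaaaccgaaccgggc
Tap1: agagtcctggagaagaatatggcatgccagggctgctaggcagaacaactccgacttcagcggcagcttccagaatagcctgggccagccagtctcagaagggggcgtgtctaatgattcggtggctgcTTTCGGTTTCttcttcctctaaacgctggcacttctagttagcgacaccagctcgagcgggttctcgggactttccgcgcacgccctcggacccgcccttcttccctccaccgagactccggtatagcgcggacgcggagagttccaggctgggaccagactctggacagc
Genes with a match lay on both sides: Gbp2 and Tap1 were lower in Dex and Oas1 higher, and with the same element B2m differed by 0.08 and Irf7 by 0.20. A match is a description of these letters and not of binding.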

How the data were processed

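Total RNA was labeled with Cy3 and hybridized to 4 Control and 4 Dex arrays. The authors read the arrays with Agilent Feature Extraction 9.5.3.1, which gives each spot a background-subtracted intensity on a linear scale and a flag for signal well above background. The log2 table they deposited was made from it by quantile normalization, with median polish over the spots of a probe. Probe positions are rn3.

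The log2 values were computed anew from the deposited spot intensities with quantile normalization. Outlier spots were left out, and spots of a probe were combined by median polish. The values correlated with the deposited log2 table at 0.999999 or above on each array. Control spots were left out. limma 3.58.1 (R 4.3.3) was fitted to all 41012 probes over all 8 arrays without covariates, and p-values were adjusted by Benjamini-Hochberg over all of them. The brightest probe over all arrays stands for a gene.

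The member genes and all gene lists were chosen with earlier results of these data known. Genes named with values are those called, in each class the 3 with the highest mean signal and the 2 with the largest difference, and B2m, Cd74, Irf1, Irf4 and Irf7. RT1-S3, RT1-Cl, RT1-Aw2, RT1-Bb, RT1-CE6, Ifit1, Ifitm1, Ifi27l, Irf2bp1, the other Gbp and Oas genes, Mx1, Mx2, G1p2 and the genes outside the rule were named after their values were seen.

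Both groups are numbered 1 to 4. After subtraction of the group means, arrays of one number correlated across probes at 0.397, 0.129, 0.550 and 0.184, all above 0.1, so a number was treated as a pair of cultures. Unlike numbers reached 0.401 (Control 1 with Dex 2). Slides held Control 1 and Dex 3, the other 3 Control arrays, and the other 3 Dex arrays. With slide as a fixed block only Control 1 and Dex 3 therefore carry the comparison. The fits were tested on simulated data. Other settings tried were 75th percentile scaling, normexp background correction (offset 50), dim probes left out, the replicate block, slide as a fixed and as a random block, the deposited table, outlier spots kept, each array left out, and the signal to noise statistic over 70 assignments of the arrays.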

Additional observations from a re-analysis of the deposited data

Results flagged for a closer look

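Tap2 on Control 1 stood apart from the other Control arrays. Its log2 signal was 14.65, and the nearest of the others was 15.74, a gap of 0.886 of the group's whole range, above the critical value of Dixon's test for 4 samples. The Control and Dex groups of 22 named genes were examined, 44 groups in all, and this was the only 1 past that value, where chance alone would mark about 5% of groups. Dex 1 and Dex 2 had Tap2 values near it, at 14.89 and 14.80.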

How the results depend on the processing

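The count of 3 called member probes was 0 with 75th percentile scaling and with slide as a fixed block, 1 with the replicate block (Oas1, higher in Dex), 7 with normexp, 9 with slide as a random block (fitted with a within-slide correlation of -0.235) and 11 by the signal to noise statistic. Leaving out 1 array gave 1 to 3, with 1 without Control 3 and 1 without Control 4. RT1-N3 passed in 13 of 16 other settings, RT1-N1 in 11, Gbp2 in 5 and Oas1 in 5, and each kept its direction in all 16. Among the member genes named, the replicate block changed no other call, and outside them Socs1 (adjusted p = 0.121) and Il7r (0.16) no longer passed with it.

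With slide as a fixed block, carried by 2 arrays, the median difference was 0.14 for class I, -0.64 for peptide loading, -0.32 for interferon regulatory factors and -0.47 for interferon-induced genes. It was -0.46 for peptide loading without Control 1 (range over left-out arrays -0.46 to -0.23) and 0.20 for interferon regulatory factors with dim probes left out. The class II median moved by less than the spread between arrays in each setting, with a range of -0.31 to 0.12 over left-out arrays. With slide as a fixed block the difference of 28 of 69 member genes turned sign, none of them called. Of the genes named by the rule they were RT1-CE1 at 0.16, RT1-Db1 at 0.16, Tap2 at 1.04, Irf3 at 0.27, Irf7 at -0.26, Irf2 at -0.76, Ifi30 at -0.12 and B2m at -0.14. Cd74 was -0.014 with 75th percentile scaling and -0.0051 with slide as a random block. Leaving out 1 array moved Cd74 from -0.26 to 0.28, RT1-Db1 from -0.31 to 0.28, RT1-Da from -0.39 to 0.12 and Ifi30 from -0.22 to 0.22. The cause of these moves was not tested. With 4 arrays a group and 16 of 92 probes not well above background throughout either group, small differences of dim genes are out of reach.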

Other observations

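Some genes of these families are listed on the array under older names that the rule does not take, and were found through their RefSeq symbols. RT1-DMa, a chain of the class II peptide editor, listed as Hla-dma, was 10.43 ± 0.13 in Control and 10.86 ± 0.13 in Dex (SD, n = 4 each), a difference of 0.43 (SE 0.15, limma adjusted p = 0.342). All its Dex values lay above all its Control values, and it passed an unadjusted p of 0.05 and the signal to noise statistic, unlike the class II probes that the rule takes. Irf9, the DNA-binding part of the factor that type I interferons activate, listed as Isgf3g, was 7.97 ± 0.21 in Control and 7.86 ± 0.33 in Dex (SD, n = 4 each), a difference of -0.11 (SE 0.21, limma adjusted p = 0.899). Ifi44l, listed as LOC310968, differed by -0.26 (SE 0.30, limma adjusted p = 0.814).

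Among the markers of mature single positive thymocytes, 9 on the array, 5 were higher and 4 lower in Dex (median 0.06), and 1 passed the test. Il7r, the interleukin 7 receptor, rose from 5.05 ± 0.12 to 6.68 ± 0.54 (SD, n = 4 each), a difference of 1.62 (SE 0.27, limma adjusted p = 0.041, and 0.160 with culture number as a block). On the other side Cd5, a regulator of T cell receptor signals, differed by -0.70 (SE 0.19, limma adjusted p = 0.197) with no overlap, and Itgb7 by -0.71 (SE 0.29, limma adjusted p = 0.429) with overlap.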
